A study of Mus musculus with 2 samples.

Results

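Expression of 10 genes of the circadian clock, Dbp, Tef, Per1, Per2, Per3, Nr1d1, Nr1d2, Arntl, Ciart and Bhlhe40, was followed in single cells of pancreatic tumors after incomplete irreversible electroporation (iIRE). The 10 genes were taken by symbol from the 32285 genes counted. They were selected on the level of Dbp, which differed between the iIRE and control libraries in tumor cells, so the difference of Dbp there, and every ratio from the same contrast, is given as a description with no test. The tumors were grown in the pancreas of male C57BL/6 mice from KPC cells, a pancreatic cancer line from genetically engineered mice in which Pdx1-Cre, active in the pancreas, switches on the driver mutations. The iIRE library came from residual tumors collected 3 days after electric pulses that left viable tumor at the margin, and the control library from tumors that had, per the labels, a sham operation, whereas the study's text calls them untreated. The mice were 5 to 7 weeks old when ordered, and how many tumors were pooled per library is not given in the sources used here. Each group is 1 library (n = 1), so every interval below is a 95% interval that covers counting error only, and the effect of iIRE, differences between mice and the hour of the day at which tumors were collected cannot be told apart.

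The circadian clock is a feedback loop of transcription that runs with a period of about a day in most mammalian cells. The activators BMAL1, encoded by Arntl, and CLOCK bind E-box sequences and switch on the Per and Cry repressors, the nuclear receptors REV-ERBα (Nr1d1) and REV-ERBβ (Nr1d2), CIART and the transcription factors DBP and TEF. The PER and CRY proteins then shut BMAL1 and CLOCK down, REV-ERBs repress Arntl through ROR elements, and DBP and TEF act on D-box sequences in further genes, Per3 among them. In mouse tissues Arntl and Npas2 therefore peak near dawn, at the opposite phase to most E-box genes, which peak between midday and dusk.

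These 3 kinds of sequence were searched for, on both strands, in the 250 bases before and 50 bases after each RefSeq start site (GRCm38.p6), a window held for 8 of the 10 genes. The E-box was searched as CACGTG, which 7.15% of 32851 mouse promoters of that length hold. The D-box was searched as TTACGTAA or TTATGTAA, held by 1.06%, and the ROR motif as AGGTCA, held by 16.3%. None of the matches found overlapped another. Ciart held 3 E-boxes, at positions -116, -58 and -44 from its start site, Tef held 1 in each of its 2 promoters, and Per1 held 1. Per3 was the only one of the 8 with D-boxes, TTATGTAA starting at positions -205 and -158 from the start site. AGGTCA was found for Per1, Nr1d2 and Arntl, and no searched motif lay in the windows of Dbp and Nr1d1. The sequences of the 250 bases before the start are shown for the 4 genes with E- or D-boxes, and for Dbp, whose level differed most. Capitals mark CACGTG, TTATGTAA and, in Per1, TGACCT, which is AGGTCA on the other strand.
Ciart (chr3:95882229-95882478, minus strand): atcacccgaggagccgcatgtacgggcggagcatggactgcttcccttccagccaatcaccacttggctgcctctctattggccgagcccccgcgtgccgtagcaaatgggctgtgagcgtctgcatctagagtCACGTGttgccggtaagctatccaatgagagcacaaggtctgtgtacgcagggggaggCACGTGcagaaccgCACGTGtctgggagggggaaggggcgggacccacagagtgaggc
Per3 (chr4:151044666-151044915, minus strand): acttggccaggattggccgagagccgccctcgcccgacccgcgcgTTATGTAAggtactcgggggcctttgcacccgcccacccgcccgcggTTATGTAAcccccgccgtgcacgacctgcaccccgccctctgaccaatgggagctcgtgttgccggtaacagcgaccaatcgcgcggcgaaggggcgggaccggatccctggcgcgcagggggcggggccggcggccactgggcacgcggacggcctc
Tef (chr15:81811164-81811413, plus strand): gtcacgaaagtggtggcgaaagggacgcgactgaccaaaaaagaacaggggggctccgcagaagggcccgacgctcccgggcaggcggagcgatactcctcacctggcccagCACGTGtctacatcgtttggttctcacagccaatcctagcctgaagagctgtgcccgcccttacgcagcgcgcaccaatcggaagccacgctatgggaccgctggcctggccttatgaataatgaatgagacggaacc
Per1 (chr11:69098699-69098948, plus strand): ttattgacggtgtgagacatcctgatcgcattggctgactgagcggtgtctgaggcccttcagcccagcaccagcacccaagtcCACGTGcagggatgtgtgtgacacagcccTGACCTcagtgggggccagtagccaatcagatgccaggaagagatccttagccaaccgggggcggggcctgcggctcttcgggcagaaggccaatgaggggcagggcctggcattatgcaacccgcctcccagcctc
Dbp (chr7:45704997-45705246, plus strand): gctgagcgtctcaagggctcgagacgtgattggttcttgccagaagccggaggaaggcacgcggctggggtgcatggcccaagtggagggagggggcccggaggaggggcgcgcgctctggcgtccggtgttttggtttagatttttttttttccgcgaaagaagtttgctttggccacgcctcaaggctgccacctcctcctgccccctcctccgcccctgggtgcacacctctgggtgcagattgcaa

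After quality filters, 18827 iIRE and 17812 control cells remained, with medians of 6798 and 8549 unique molecular identifiers (UMIs, each 1 captured RNA molecule). The study's text describes the iIRE cells as the deeper ones, while the barcodes assigned to iIRE here were the shallower, and the direction of every ratio rests on this assignment by barcode ending. With this assignment the iIRE cells were the more numerous after filters, as they are in the study's text. Cells were placed in classes by marker genes. Epithelial-type tumor cells had transcripts of the Cdkn2a locus and far more keratin than Lum and Dcn RNA, and numbered 13845 in the iIRE library and 12636 in the control library. Mesenchymal-type tumor cells had at least as much Lum and Dcn as keratin RNA and numbered 756 and 769. Macrophages numbered 1019 and 999, neutrophils 146 and 118, and tumor cells that met neither description 2077 and 2178. All 8 epithelial markers were detected in the epithelial-type cells, summing to 3237 CPM (UMIs per 1000000 UMIs of the class) in iIRE and 2892 CPM in control. The same cells also held 9878 and 10556 CPM of the 8 mesenchymal markers, so the names stand for ends of a range. Of the tumor cells, 1229 iIRE and 1375 control cells lay within 1.5-fold of the keratin limit. The median iIRE epithelial-type cell had 6355 UMIs and the median control cell 8333.5.

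Most of the clock genes that E-boxes drive were higher in the iIRE tumor cells. Arntl was lower there, though past 1.2-fold only in mesenchymal-type cells. In epithelial-type cells 6 of the 10 genes, Dbp, Tef, Per1, Per2, Per3 and Nr1d2, were at least 1.2-fold higher in iIRE and none was as much lower. Over all 15778 genes with at least 50 UMIs there, 13.6% were this much higher and 6.25% this much lower. In mesenchymal-type cells 8 of 10 were higher, and Arntl was lower, where 9.75% and 11.7% of 11473 genes were. In the tumor cells of neither type 7 of 10 were higher and none lower, where 9.78% and 9.18% of 12509 genes were. All 10 genes had passed the minimum of 50 UMIs in these 3 classes. The median log2 ratio of iIRE over control across the 10 genes was 0.45 in epithelial-type cells, beside 0.04 over all genes tested, and 0.57 in mesenchymal-type cells, beside -0.01. In macrophages 3 of the 8 genes that passed were higher and 1 was lower. Here 20.3% of 10141 genes were higher and 11.1% lower, and the medians were 0.14 for the clock genes and 0.06 for all.

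**Figure D1:**
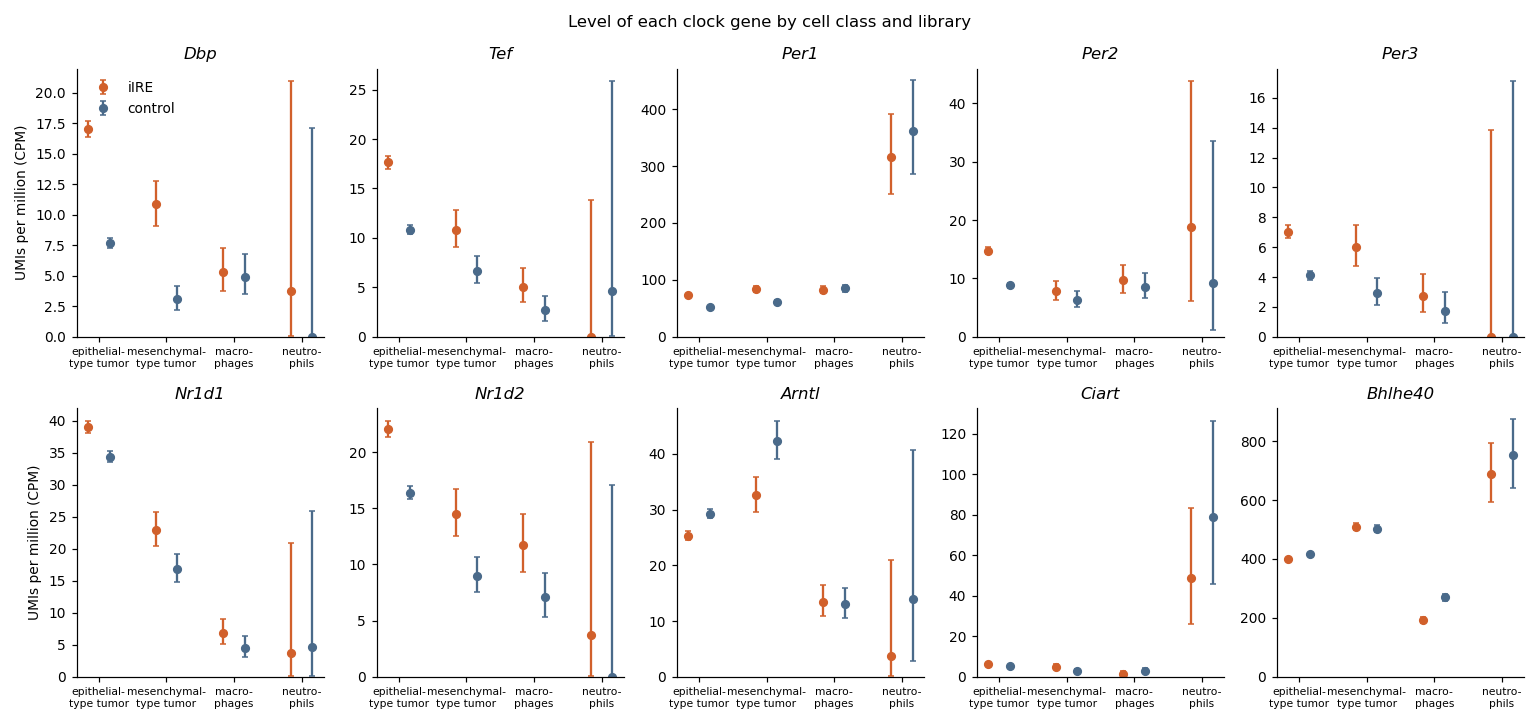
Level of each of the 10 clock genes in CPM (vertical axis starting at 0) in 4 cell classes, with the iIRE library in orange at the left of each pair and the control library in blue at the right. Points are 1 library each and bars are exact 95% Poisson intervals. Dbp stood at 17.0 and 7.69 CPM in epithelial-type tumor cells of the iIRE and control libraries, and at 5.28 and 4.94 CPM in macrophages.

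Dbp encodes a D-box-binding activator and is among the genes with the widest daily swing in liver and other mouse organs. It lies on chromosome 7 (mm10, 45705088 to 45710203). In epithelial-type cells it had 2814 UMIs, or 17.0 CPM (16.4 to 17.6), in iIRE and 1404 UMIs, or 7.69 CPM (7.29 to 8.10), in control. The level was 2.21-fold higher in iIRE. In mesenchymal-type cells it had 139 UMIs, or 10.8 CPM, in iIRE and 44 UMIs, or 3.07 CPM, in control, a ratio of 3.53-fold. The log2 ratios were 1.15 (1.05 to 1.24) and 1.82 (1.32 to 2.34), and in the tumor cells of neither type 1.41 (1.11 to 1.71). By size of ratio Dbp was the 139th highest of 15774 genes with a UMI in each library in epithelial-type cells and the 10th of 11471 in mesenchymal-type cells.

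In macrophages the levels of Dbp in both libraries were close. They had 37 Dbp UMIs in each library, or 5.28 CPM (3.72 to 7.28) in iIRE and 4.94 CPM (3.48 to 6.81) in control, and a log2 ratio of 0.10 (-0.60 to 0.79). Whether the ratios of the 10 genes differ between cell classes was not tested, since the genes were selected on the tumor cells and each group is 1 library. Among cells each thinned to 2000 UMIs, 3.24% of iIRE and 1.46% of control epithelial-type cells had a Dbp UMI. In macrophages these shares were 0.619% (0.228 to 1.34) and 1.16% (0.579 to 2.06), with intervals that overlap. Without thinning they were 13.3% and 7.49% in epithelial-type cells and 2.85% and 3.40% in macrophages. Thinning left out the cells under 2000 UMIs, leaving 13751 and 12567 epithelial-type cells and 969 and 950 macrophages.

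Tef, which encodes a D-box activator of the same family as DBP, was higher in iIRE in every class that could be compared. It stood at 17.6 CPM (17.0 to 18.3) in iIRE and 10.8 CPM (10.4 to 11.3) in control epithelial-type cells, and at 10.8 and 6.70 CPM in mesenchymal-type cells. The log2 ratios were 0.70 (0.62 to 0.79) and 0.69 (0.31 to 1.08). Macrophages had 35 UMIs in iIRE and 20 in control, a log2 ratio of 0.90 (0.07 to 1.77), which rests on few molecules. Hlf, the other activator of the family and not among the 10 genes, was also higher in tumor cells. It stood at 5.48 CPM in iIRE and 3.50 CPM in control epithelial-type cells and at 7.57 and 3.98 CPM in mesenchymal-type cells, log2 ratios of 0.64 and 0.93. Nfil3, which encodes a repressor of the same D-boxes, stood at 76.5 and 79.7 CPM in epithelial-type cells, a log2 ratio of -0.06 (-0.09 to -0.03).

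The Per genes encode the PERIOD repressors of BMAL1 and CLOCK, and all 3 were higher in iIRE epithelial-type cells. Per1 stood at 73.1 CPM (71.8 to 74.4) in iIRE and 52.5 CPM (51.4 to 53.5) in control, a log2 ratio of 0.48 (0.44 to 0.52). Per2 stood at 14.8 CPM (14.2 to 15.4) in iIRE and 8.83 CPM (8.41 to 9.27) in control, a log2 ratio of 0.74 (0.65 to 0.83). Per3, with the pair of D-boxes printed above, stood at 7.05 CPM (6.65 to 7.46) in iIRE and 4.11 CPM (3.82 to 4.41) in control, a log2 ratio of 0.78 (0.65 to 0.91).

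In mesenchymal-type cells the same 3 genes were past 1.2-fold, with Per2 close to that limit. Per1 stood at 84.3 CPM in iIRE and 61.2 CPM in control, a log2 ratio of 0.46 (0.33 to 0.59). Per3 stood at 6.01 and 2.93 CPM, from 77 and 42 UMIs, a log2 ratio of 1.03 (0.47 to 1.61). Per2 stood at 7.80 and 6.35 CPM, from 100 and 91 UMIs, a log2 ratio of 0.30 (-0.13 to 0.72).

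The levels of Per1 were close in both libraries in macrophages. It stood at 82.9 CPM (76.3 to 89.9) in iIRE and 84.9 CPM (78.4 to 91.8) in control macrophages, from 581 and 636 UMIs, a log2 ratio of -0.03 (-0.20 to 0.13). Per2 had 68 and 64 UMIs in macrophages and a log2 ratio of 0.18 (-0.33 to 0.70). Per3 had 19 and 13 UMIs there and did not reach the minimum.

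**Figure D2:**
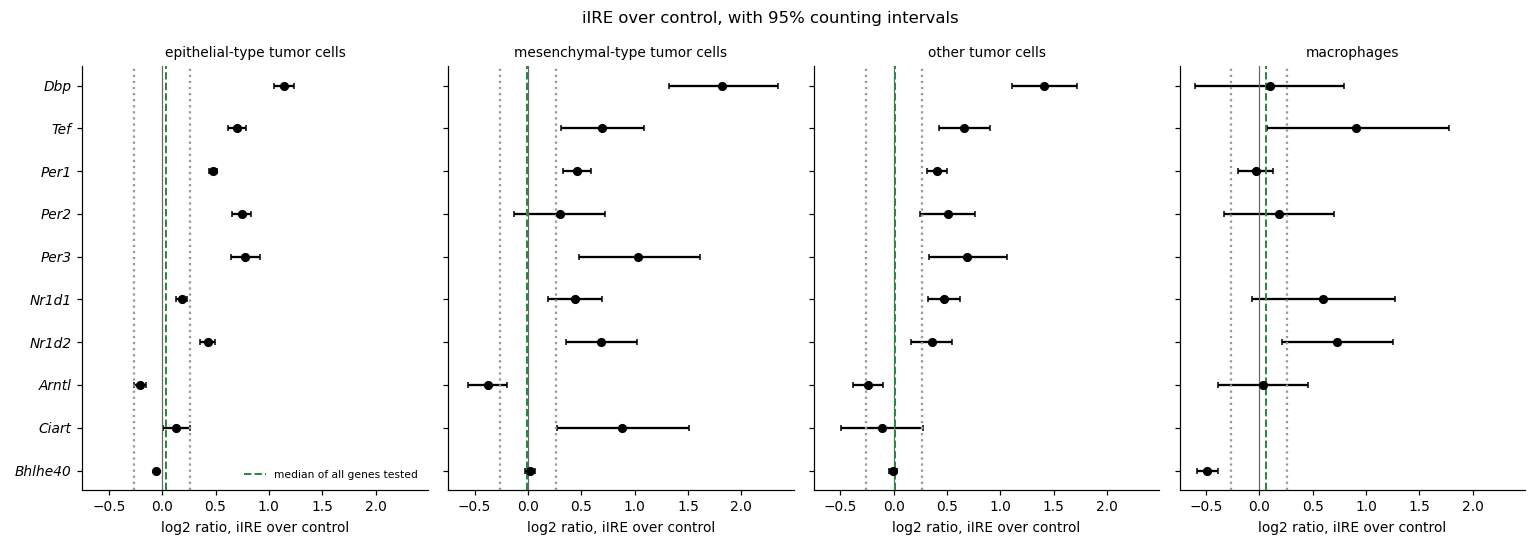
Log2 ratio of iIRE over control (horizontal axis) for each clock gene in 4 cell classes, with exact 95% counting intervals. Dotted lines mark 1.2-fold either way, the dashed green line is the median of all genes tested in that class, and Per3 and Ciart are absent from macrophages, where they had under 50 UMIs. Dbp was at 1.15, 1.82 and 1.41 in the 3 tumor cell classes and at 0.10 in macrophages.

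Nr1d1 and Nr1d2 encode the heme-binding nuclear receptors that repress Arntl. Nr1d2 was higher in iIRE in every class compared. It stood at 22.0 CPM (21.3 to 22.8) in iIRE and 16.4 CPM (15.8 to 17.0) in control epithelial-type cells, at 14.5 and 9.01 CPM in mesenchymal-type cells, and at 11.7 and 7.07 CPM in macrophages. The log2 ratios were 0.43 (0.36 to 0.50), 0.69 (0.36 to 1.02) and 0.73 (0.21 to 1.25). Nr1d1 stood at 39.0 CPM (38.0 to 39.9) in iIRE and 34.3 CPM (33.5 to 35.2) in control epithelial-type cells, under 1.2-fold, with a log2 ratio of 0.18 (0.13 to 0.23). In mesenchymal-type cells it stood at 22.9 and 16.9 CPM, a log2 ratio of 0.44 (0.19 to 0.69). In macrophages it had 48 and 34 UMIs and a log2 ratio of 0.59, with an interval (-0.07 to 1.27) that includes 0.

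Arntl, which encodes BMAL1, went the other way in tumor cells. It stood at 25.3 CPM (24.5 to 26.1) in iIRE and 29.2 CPM (28.5 to 30.0) in control epithelial-type cells, a log2 ratio of -0.21 (-0.27 to -0.15), under 1.2-fold. In mesenchymal-type cells it stood at 32.6 CPM (29.6 to 35.9) in iIRE and 42.4 CPM (39.1 to 45.9) in control, a log2 ratio of -0.38 (-0.56 to -0.20). In the tumor cells of neither type it stood at 29.0 and 34.3 CPM, a log2 ratio of -0.24 (-0.38 to -0.10). Arntl was thus the lower in iIRE in all 3 tumor cell classes. In macrophages Arntl had 94 and 98 UMIs and a log2 ratio of 0.04 (-0.39 to 0.46).

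Ciart and Bhlhe40 encode further repressors of BMAL1 and CLOCK, and neither followed the Per genes in epithelial-type cells. Ciart, with 3 E-boxes before its start, stood at 6.03 CPM in iIRE and 5.51 CPM in control, a log2 ratio of 0.13 (0.00 to 0.26). In mesenchymal-type cells it had 61 and 37 UMIs and a log2 ratio of 0.88 (0.27 to 1.51), and in the tumor cells of neither type 104 and 125 UMIs and a log2 ratio of -0.11 (-0.50 to 0.28). Bhlhe40, which also responds to hypoxia and to cytokines, stood at 401 CPM in iIRE and 416 CPM in control epithelial-type cells, a log2 ratio of -0.05. In mesenchymal-type cells it stood at 510 and 503 CPM, a log2 ratio of 0.02 (-0.03 to 0.07). Macrophages held less of it in iIRE, 192 CPM (182 to 203), against 270 CPM (258 to 282) in control, a log2 ratio of -0.49 (-0.59 to -0.39).

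In neutrophils only Per1 and Bhlhe40 reached 50 UMIs, and both were under 1.2-fold, where 25.3% of 1332 genes were higher and 25.9% lower. Per1 stood at 316 CPM (252 to 391) in iIRE and 362 CPM (286 to 451) in control, and Bhlhe40 at 688 CPM (592 to 795) and 751 CPM (640 to 876). Ciart had 13 and 17 UMIs. Of Dbp, 1 UMI was counted in the iIRE neutrophils and 0 in the control ones, for which the exact interval reaches 17.1 CPM, so a difference of the size seen in tumor cells was not detectable at this depth.

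Among the 4 main classes, the order of levels was not the same for all genes. Nr1d1, Nr1d2 and Tef were highest in epithelial-type cells, then in mesenchymal-type cells, then in macrophages, in both libraries. Nr1d1 was 5.69-fold higher in epithelial-type cells than in macrophages in iIRE and 7.57-fold in control. Among these 4 classes Arntl was highest in mesenchymal-type cells, at 1.29-fold the epithelial-type level in iIRE and 1.45-fold in control. Per1 and Bhlhe40 were highest in neutrophils among these 4 classes, and Bhlhe40 was higher still in dendritic cells, at 957 CPM in iIRE and 859 CPM in control. Ciart was likewise highest in neutrophils among the 4, at 48.8 CPM (26.0 to 83.5) in iIRE and 78.8 CPM (45.9 to 126) in control. These Ciart levels rest on few molecules, 13 and 17 UMIs. Dbp was 3.22-fold higher in epithelial-type cells than in macrophages in iIRE and 1.56-fold in control. Per2 was 1.52-fold higher in epithelial-type cells than in macrophages in iIRE (log2 interval 0.26 to 0.98), while in control the pair was not told apart (-0.31 to 0.43). Epithelial-type and mesenchymal-type cells were not told apart for Per3 (-0.58 to 0.10) or Ciart (-0.74 to 0.03) in iIRE. In control both genes were lower in mesenchymal-type cells, by log2 ratios of -0.49 (-0.97 to -0.04) for Per3 and -1.09 (-1.61 to -0.62) for Ciart.

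The wider clock was described through lists of genes, which include the 10. Of 12 genes driven through E-boxes and peaking toward dusk, 9 were at least 1.2-fold higher in iIRE epithelial-type cells and none was lower. Their median log2 ratio was 0.45, and over all genes there 13.6% were higher and 6.25% lower. The 12 hold all of the 10 genes but Arntl and Bhlhe40, so these counts largely repeat those above. Only Hlf, Usp2, Wee1 and Bhlhe41 were added. In mesenchymal-type cells 10 of 12 were higher, with a median of 0.68, where 9.75% of all genes were higher. Beside the genes above, Usp2, a deubiquitinase with a strong daily rhythm in liver, had log2 ratios of 0.37 (0.13 to 0.61) and 0.66 (0.26 to 1.07). Wee1, a kinase that holds back entry into mitosis, had 0.31 (0.24 to 0.39) and 0.17 (-0.09 to 0.43), and Bhlhe41, the relative of Bhlhe40, -0.02 and -0.18. The list's genes under 1.2-fold were Ciart, Nr1d1 and Bhlhe41 in epithelial-type cells, and Wee1 and Bhlhe41 in mesenchymal-type cells.

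The dawn list did not mirror it. Of its 5 genes, Arntl, Npas2, Clock, Nfil3 and Cry1, none was 1.2-fold lower in iIRE epithelial-type cells. Cry1, a repressor with a late peak, was higher, at 5.63 CPM in iIRE and 4.68 CPM in control, a log2 ratio of 0.27 (0.13 to 0.40). Clock had a log2 ratio of 0.08 (0.03 to 0.12), and the list's median was 0.08. Npas2 was also higher in iIRE, though under 1.2-fold, while Arntl and Nfil3 were lower. In mesenchymal-type cells 4 of the 5 passed, Arntl was the only one past 1.2-fold, and the median was -0.01. The other CRY gene, Cry2, stood at 6.76 and 4.85 CPM in epithelial-type cells, a log2 ratio of 0.48 (0.35 to 0.61).

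**Figure D3:**
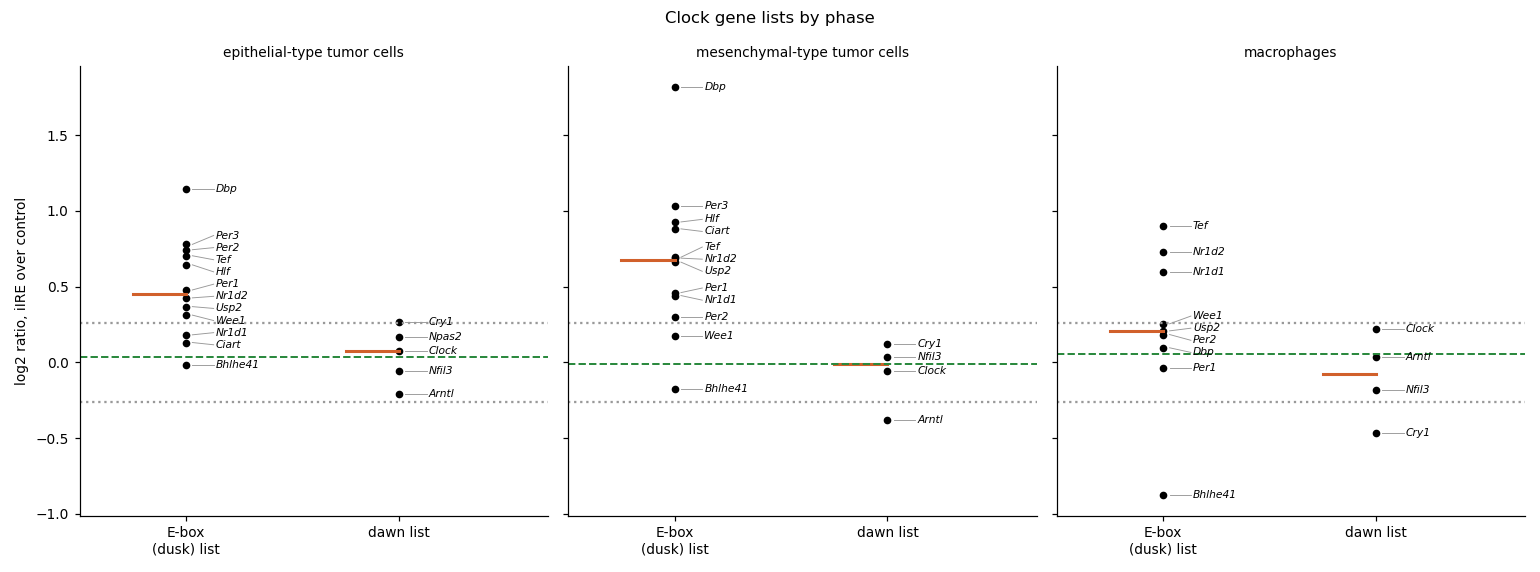
Log2 ratio of iIRE over control (vertical axis) for the genes of 2 clock lists in epithelial-type tumor cells, mesenchymal-type tumor cells and macrophages, 1 point per gene with at least 50 UMIs. Orange bars are list medians, the dashed green line is the median of all genes tested and dotted lines mark 1.2-fold. The E-box list had medians of 0.45, 0.68 and 0.21, and the dawn list 0.08, -0.01 and -0.07.

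In macrophages the E-box list had 3 of 9 genes higher and 1 lower, with a median of 0.21, where 20.3% of all genes were higher and 11.1% lower. The lower gene was Bhlhe41, at 15.8 CPM in iIRE and 29.1 CPM in control, a log2 ratio of -0.88 (-1.22 to -0.54). Cry1 had a log2 ratio of -0.46 (-0.96 to 0.02). Other gene groups moved with these values in the same cells. Of 8 immediate-early genes 7 were lower in iIRE macrophages, with a median of -0.50, of 10 hypoxia genes 6 were lower, with a median of -0.43, and of 8 genes of dividing cells 8 were higher, with a median of 0.53. Their part in the macrophage result was not tested. In epithelial-type cells the same 3 lists had medians of -0.10, -0.07 and 0.07. Fosb, an immediate-early gene, was the only one past 1.2-fold, and it was higher in iIRE. In mesenchymal-type cells the genes of dividing cells moved with the clock genes, 5 of 8 being higher in iIRE with a median of 0.42, and in the tumor cells of neither type 5 of 8 were higher with a median of 0.34 and 4 of 10 hypoxia genes were lower. Their part in the clock result of these tumor cells was not tested. The count in macrophages also depended on cells with markers of a second class, which were left out. With them kept, Dbp (log2 ratio 0.38) and Per2 (0.50) were past 1.2-fold as well, and 7 genes were past it in place of 4. Of all genes, 16.9% were then higher and 11.7% lower. Macrophages held 26.1 CPM of epithelial markers in iIRE, 6 of 8 detected, and 28.3 CPM in control, 7 of 8 detected. They also held Cdkn2a at 45.7 CPM in iIRE and 30.2 CPM in control, and the 8 mesenchymal markers, all detected, at 2245 and 2391 CPM, and the part of tumor RNA in the macrophage values was not tested.

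Per1 is also a target of the glucocorticoid receptor, so 10 glucocorticoid-responsive genes, Per1 among them, were set beside it. In epithelial-type cells 2 of them were higher, Per1 and Zbtb16, with a median of 0.06 for the list. Zbtb16 encodes a zinc finger repressor and stood at 3.45 CPM in iIRE and 2.02 CPM in control, a log2 ratio of 0.77 (0.58 to 0.96). Fkbp5 and Klf9 had log2 ratios of 0.24 each, just under 1.2-fold, and Tsc22d3, Sgk1 and Dusp1 had 0.06, -0.05 and -0.25. Whether corticosteroid had a part in the level of Per1 was not tested.

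Since dividing cells may differ in their clock, the epithelial-type cells were split into 9124 iIRE and 7788 control cells with at least 3 of 8 genes of dividing cells, and 1945 and 1961 cells with none. The same 6 genes were past 1.2-fold in both. In dividing cells 13.5% of 14986 genes were this much higher and 6.66% lower, and in non-dividing cells 9.53% of 12305 were higher and 7.53% lower. Dbp stood at 15.0 CPM in iIRE and 6.20 CPM in control dividing cells, and at 21.3 and 10.7 CPM in non-dividing cells. The ratio of Dbp was thus 1.28 in dividing and 0.99 in non-dividing cells, on the log2 scale. Per2 had 0.85 and 0.49. Arntl had -0.19 and -0.20.

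Within each library, dividing cells had less of some clock genes and more of others. Dividing cells were also shallower, with medians of 5728.5 UMIs in iIRE and 7061 in control, beside 14223 and 16511 in non-dividing cells. Levels varied with depth, as given below, and the part of depth in these differences was not tested. Dbp was lower in dividing than in non-dividing cells, by log2 ratios of -0.50 (-0.64 to -0.37) in iIRE and -0.79 (-0.98 to -0.60) in control. Ciart was at -0.33 and -0.47 and Bhlhe40 at -0.38 and -0.33. Nr1d2 was higher in dividing cells, at 0.47 (0.33 to 0.61) in iIRE and 0.28 (0.13 to 0.43) in control, and Arntl was higher at 0.18 and 0.17. Per2 was at 0.44 (0.26 to 0.61) in iIRE and 0.08 (-0.12 to 0.28) in control.

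**Figure D4:**
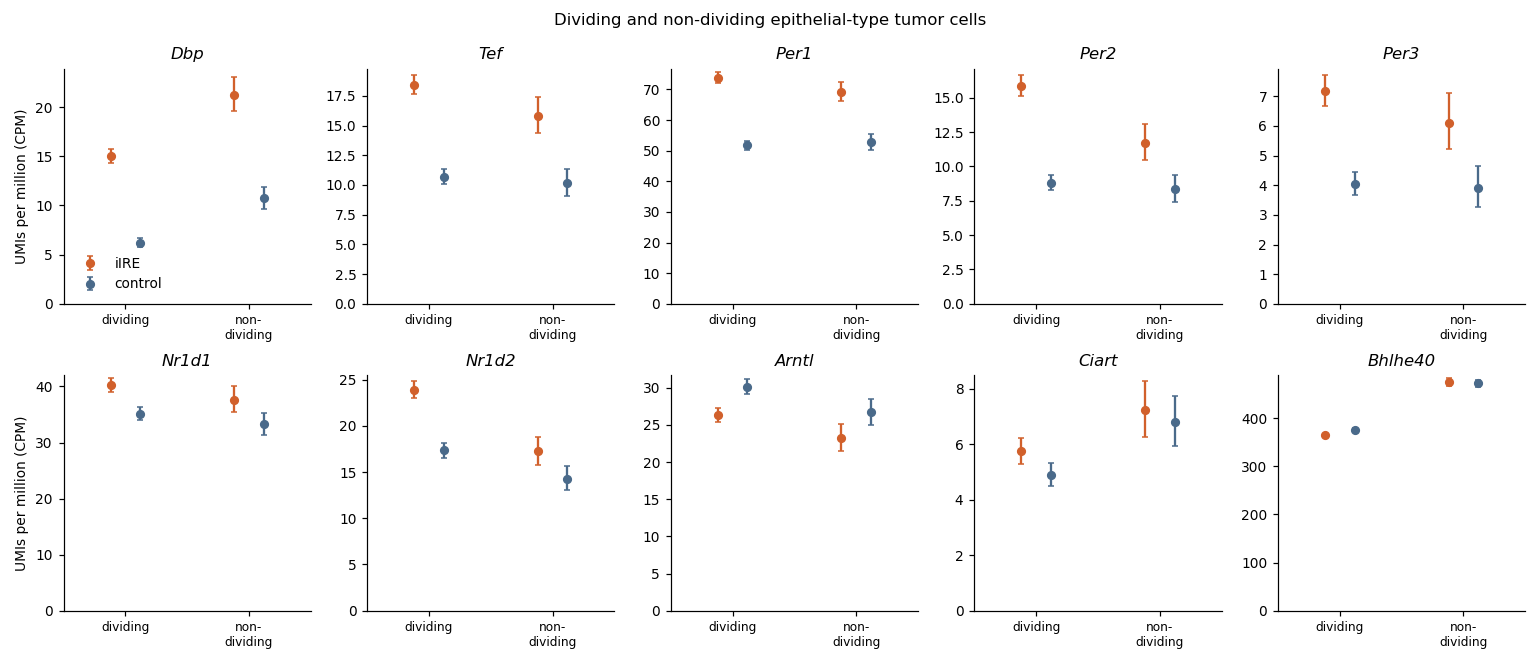
Level of each clock gene in CPM (vertical axis starting at 0) in dividing and non-dividing epithelial-type tumor cells, with iIRE in orange at the left of each pair and control in blue at the right, and exact 95% Poisson intervals. Dbp was lower in dividing cells of both libraries and higher in iIRE in both kinds of cell.

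The libraries differed in depth per cell, so the ratios were also taken among epithelial-type cells of like depth. In cells of 3000 to under 10000 UMIs, 8226 in iIRE and 6604 in control, Dbp stood at 15.1 and 5.16 CPM, a log2 ratio of 1.55 (1.33 to 1.79). In cells of 10000 to under 20000 UMIs, 2446 and 2218, the ratio was 0.98 (0.79 to 1.16), and in cells of 20000 or more, 2881 and 3532, it was 1.08 (0.952 to 1.202). Tef, Per1, Per2 and Per3 were likewise past 1.2-fold in each of the 3 ranges, and Nr1d2 in the lowest and highest but not in the middle one, at 0.19 (0.02 to 0.35). Arntl was at -0.17, -0.33 and -0.39, past 1.2-fold lower in the middle and highest ranges, though not over all epithelial-type cells. The share of all genes past 1.2-fold is not given for these ranges. Whether the clock genes passed it more often than other genes there was therefore not tested. The levels themselves varied with depth. Per1 stood at 110 CPM in iIRE and 83.1 CPM in control cells of the lowest of these ranges, and at 54.1 and 39.9 CPM in those of the highest. Cells of 1000 to under 3000 UMIs, 292 in iIRE and 282 in control, are not among the 3 ranges. Of the clock genes only Per1 and Bhlhe40 had enough UMIs there for a ratio. Their log2 ratios were 0.59 (0.05 to 1.14) and 0.02 (-0.22 to 0.26).

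**Figure D5:**
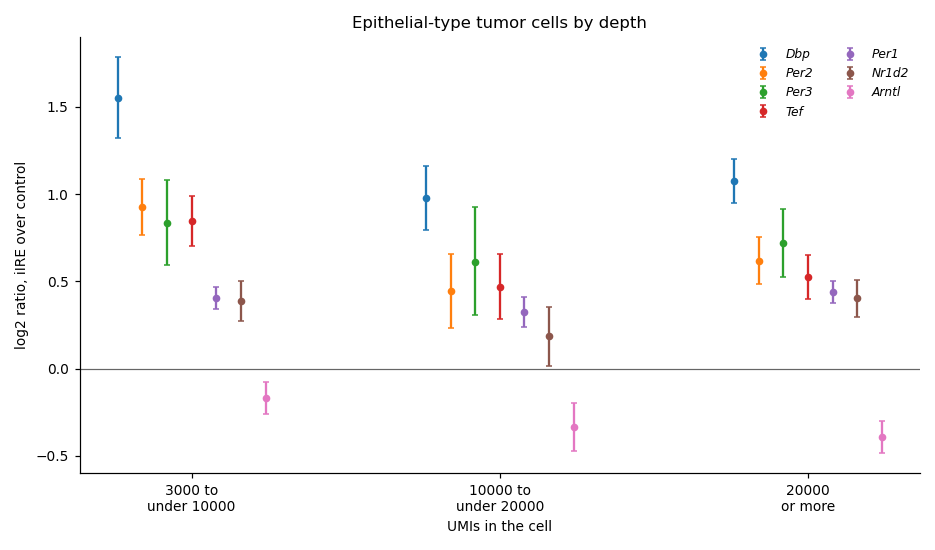
Log2 ratio of iIRE over control (vertical axis) for 7 clock genes in epithelial-type tumor cells of 3 ranges of depth (horizontal axis, UMIs in the cell), with exact 95% counting intervals. Dbp was at 1.55, 0.98 and 1.08 and Arntl at -0.17, -0.33 and -0.39.

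The genes whose ratios over epithelial-type cells, mesenchymal-type cells and macrophages lay nearest those of Dbp were sought among 8968 genes, by the straight-line distance of the 3 log2 ratios. Neutrophils were left out of this measure because they held 1 Dbp UMI. The 5 nearest were Slfn5, Gbp3, Rtp4, Slfn8 and Iigp1, at distances of 0.78, 0.79, 0.84, 0.88 and 0.90. Gbp3, for example, had log2 ratios of 0.36, 1.83 and 0.10, beside 1.15, 1.82 and 0.10 for Dbp. These distances are wide on a log2 scale, and the 5 are known in mouse as interferon-induced genes, none of them part of the clock.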

How the data were processed

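Single-cell RNA-seq (10x Genomics, 5′ chemistry) was measured in 1 iIRE and 1 control library. The authors aligned reads to mm10 with Cell Ranger, which uses STAR, and deposited raw UMI counts per gene and barcode with no normalization; the matrix header names Cell Ranger 7.0.1. The ending of a barcode was taken to give the library, and 458 barcode sequences occur in both libraries. The labels number the libraries, and the endings were taken to follow these numbers. This assignment was kept although the study's text reports the depths the other way round. With it the iIRE cells are the more numerous, as in the study. The libraries held 222153118 UMIs in 19433 iIRE barcodes and 247105192 in 18538 control barcodes. Cells were kept with 200 or more genes, 1000 or more UMIs, log10 genes over log10 UMIs no lower than 0.7, and up to 5% each of mitochondrial and hemoglobin UMIs.

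The genes, lists and comparisons were chosen with earlier results of these data known. Gates on markers placed cells in classes: immune cells had at least 16 UMIs of 5 pan-immune genes per 10000 and at least 3 of those genes, tumor cells fell below that and had at least 1 Cdkn2a UMI, epithelial-type cells had keratin at 4 or more per 10000 and 4 times Lum plus Dcn, and macrophages and neutrophils had at least 4 of 10 markers. These limits were set after the marker levels were seen. No doublet caller was run, and cells with markers of a second class were left out. No class was given to 772 iIRE cells (4.10%) and 851 control cells (4.78%). UMIs were summed per class and library and divided by the class total (CPM). Log2 ratios used no pseudocount and needed 50 UMIs over both libraries, intervals were exact (Poisson for levels, Clopper-Pearson for ratios and shares), and a gene was counted from 1.2-fold. With 1 library per group no test between groups was possible. Named genes were the 10, the list genes and the 5 nearest to Dbp. The splits by depth were added after the data were seen. The ratios and intervals were tested on simulated counts that varied by counting error alone, as the intervals assume. These held no differences between cells, mice or libraries. Python 3.11.15, scipy 1.17.1 and edgeR 4.0.16 (for TMM factors only) were used, with gene positions from GENCODE vM21. Some items are not reported here.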

Additional observations from a re-analysis of the deposited data

How the results depend on the processing

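The counts of clock genes past 1.2-fold were recomputed under 14 other settings, and the median ratios and the ratio of each gene under 10 of them. The count in epithelial-type tumor cells stayed within 1.5 times of 6 under all 14. It became 4 at a limit of 1.5-fold, without Per1 and Nr1d2, and was 6 under the other settings. The share of all genes that were higher there lay between 0.723% with 10 CPM added and 16.5% with each cell weighted equally. The share that were lower lay between 0.615% and 8.01% under the same 2 settings. In mesenchymal-type cells the count of 9 became 5 at a limit of 1.5-fold, all higher in iIRE. In macrophages the count of 4 became 2 with 10 CPM added, where 8.69% of all genes were higher and 4.57% lower. It was also 2 with at least 100 UMIs required. With cells holding markers of another class kept it was 7, where 16.9% of all genes were higher and 11.7% lower. In neutrophils the count of 0 became 1 without the 10% of cells with the most UMIs (26.6% of all genes higher, 27.0% lower). It was also 1 with each cell weighted equally (33.2% and 23.5%), Bhlhe40 being lower both times. It was 1 with at least 20 UMIs (Ciart lower) and 4 with no minimum beyond 1 UMI in each library. The share of all genes at 1.5-fold, or at other minimums of UMIs, is not given. The counts at those settings were therefore not set beside other genes. The median of the E-box list in epithelial-type cells was 0.24 with 10 CPM added, and that of the dawn list 0.0054 with 10 CPM added, 0.019 without the 10% of cells with the most UMIs and -0.089 with each cell weighted equally. Of 299 ratios of single genes, 281 stayed inside the counting interval of the value given in the text, 18 lay outside it (9 of them with 10 CPM added) and 0 past 1.2-fold changed sign. In epithelial-type cells Dbp ranged between 0.61 and 1.26 and Arntl between -0.25 and -0.14. TMM scaling made 15.0% of macrophage genes higher and 15.1% lower, in place of 20.3% and 11.1%. The share of cells with a UMI was higher in iIRE epithelial-type cells for 7 of the 10 genes, before and after thinning to 2000 UMIs. For how many of all genes this held is not given, so whether the clock genes differ from others here was not tested. The cause of these shifts was not tested. No paired analysis was possible because each group is 1 library. Depth limits Dbp, Tef, Per3 and Ciart in macrophages, which rest on under 75 UMIs over both libraries, and all genes but Per1 and Bhlhe40 in neutrophils.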

Other observations

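Smaller host classes held too few molecules for most clock genes. In osteoclast-like cells, 73 in iIRE and 72 in control, Bhlhe40 stood at 237 CPM (209 to 268) and 307 CPM (276 to 341), a log2 ratio of -0.37 (-0.61 to -0.14), the direction it had in macrophages, and Per1 at 54.8 and 49.0 CPM, a log2 ratio of 0.16 (-0.38 to 0.71). T and NK cells, 21 in iIRE and 65 in control, had 76 and 191 Bhlhe40 UMIs, or 989 and 668 CPM, a log2 ratio of 0.57 (0.16 to 0.96). Host fibroblasts, 68 and 36 cells without Cdkn2a, had 75 and 29 Per1 UMIs, or 86.0 and 66.0 CPM, a log2 ratio of 0.38 (-0.25 to 1.05), and 12 and 0 Nr1d2 UMIs, where the exact interval of the 0 reaches 8.40 CPM. Endothelial cells, 27 and 28, had 0 Dbp UMIs in both libraries.

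Rora, which encodes an activator of Arntl, stood at 3.51 CPM in iIRE and 6.35 CPM in control mesenchymal-type tumor cells, from 45 and 91 UMIs, a log2 ratio of -0.86 (-1.40 to -0.32). In macrophages it stood at 9.27 and 12.8 CPM, a log2 ratio of -0.47 (-0.94 to 0.00), and in epithelial-type cells at 1.41 and 1.37 CPM, a log2 ratio of 0.04 (-0.22 to 0.30).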
